A study of Mus musculus with 16 samples.

Results

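Macrophages labelled as Smad7 knockout were compared with and without 4 hours of TGF-β1. There were 4 treated and 4 untreated RNA-seq libraries, which are 8 of the 16 libraries of the study. The members were taken by their labels: the 4 libraries of macrophages from Smad7 fl/fl + CAGGCre-ER mice given TGF-β1 at 10 ng/ml, and the 4 of the same genotype left untreated, called KO here. The counts over all genes, and the changes of some genes, are given for these 8 libraries and again for 7. The reason is that 1 library, labelled KO untreated replicate 1, resembled the treated ones. Other changes are given for the 7 only. The remaining 8 libraries, in 2 groups of 4 with the same treatments, came from Smad7 fl/fl mice without the Cre, and are used only for the spread of the model and for values set side by side. All mice were C57BL/6, and both genotypes carried floxed Smad7 alleles and received tamoxifen (20 mg/kg, once daily for 5 days), at 1 month of age in the design text and at 1 to 2 months in the culture protocol. The CAGG promoter drives the tamoxifen-inducible Cre in all tissues, so the intended deletion was global and not restricted to macrophages. How complete it was in these cells cannot be read from the counts used here. Tibial marrow was taken 2 weeks after tamoxifen and grown with colony-stimulating factor 1 (CSF-1) in 15% serum, and the adherent macrophages were held without serum for about 12 hours before treatment. The labels do not say whether the 4 libraries of a group came from separate mice or cultures, so the p-values measure the spread between these libraries, which may be technical. The labels list 16 libraries, and the library protocol in the same labels speaks of 8.

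TGF-β binds a type II receptor that phosphorylates a type I receptor, which in turn phosphorylates Smad2 and Smad3. These join Smad4, enter the nucleus and act on promoters and enhancers, often beside AP-1 or lineage factors, while the related BMP ligands signal through Smad1, Smad5 and Smad9. Smad7 is itself induced by TGF-β and is known to block the activated type I receptor and to recruit ubiquitin ligases of the Smurf family to it. In macrophages TGF-β is known for damping inflammatory gene expression and for maintaining resident programmes such as that of microglia.

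The KO libraries held between 17131968 and 23021138 counts each, and 13080 of 35275 genes had enough counts to be tested. Levels are given in CPM, counts scaled to a library's TMM-adjusted total, and changes as log2 fold change ± standard error. The 8 macrophage markers on a fixed list were all present, with a summed level of 17333 to 25176 CPM in the KO libraries, Lyz2 and Csf1r being the most abundant. Neutrophil markers summed to between 7.02 and 11.7 CPM with Ly6g and Retnlg at 0, and NK cell markers to at most 1.40 CPM. The sums for some other cell types did not overlap between untreated replicates 2 to 4 and the treated libraries. The B and plasma cell sum, which was almost all Ighm, was 181 to 194 CPM in untreated replicates 2 to 4, 115 CPM in replicate 1 and 73.3 to 110.4 CPM with TGF-β1, with Pax5 at 0. The endothelial sum, mostly Vwf, was 36.2 to 72.5, 83.3 and 84.7 to 131 CPM in the same order with Emcn at 0, and the osteoblast sum, almost all Runx2, was 10.2 to 12.3, 33.8 and 23.4 to 39.9 CPM with Ibsp at 0. The T cell sum, mostly Cd4, was 7.93 to 9.81, 7.40 and 4.79 to 6.53 CPM in that order, with Cd3e, Cd3g and Cd8b1 at 0, and Cd4, its only member tested, fell by 0.59 ± 0.17 (edgeR adjusted p = 0.027). The osteoclast sum, mostly Nfatc1, was 80.6 to 108.6, 127.9 and 112.8 to 131.5 CPM with none of its 5 tested members called and Calcr at 0 in all but 1 library, and the erythroid sum 2.08 to 2.31, 0.859 and 0.850 to 2.01 CPM with Hbb-bt at 0. The part of such cells in the results below was not tested. In RNA from a whole culture, fewer cells of a type and less RNA per cell cannot be told apart.

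4 libraries stood apart from their groups before any test. KO untreated replicate 1 correlated at r = 0.983 to 0.989 with the 4 KO TGF-β1 libraries and at 0.952 to 0.967 with the other 3 KO untreated libraries, across the log2 CPM of the 13080 genes, which are not independent replicates. KO untreated replicate 2 correlated at 0.968 and 0.970 with replicates 3 and 4, which correlated at 0.991 with each other. It had the highest shares of ribosomal protein (4.62%) and mitochondrial (2.71%) counts of the KO libraries and the fewest genes detected, 15980. KO TGF-β1 replicate 1 correlated at 0.975 to 0.980 with the other 3 treated KO libraries, which correlated at 0.985 to 0.989 among themselves, and fl/fl TGF-β1 replicate 4 at 0.950 to 0.956 with its group. Where KO untreated replicate 2 moved a change by over 1.5 times, the value without it is given.

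Across all genes, TGF-β1 changed 676 genes in KO macrophages when all 16 libraries were fitted (edgeR, Benjamini-Hochberg adjusted p under 0.05), of which 287 rose and 389 fell. That was 5.17% of the genes tested, 2.19% higher and 2.97% lower. The 8 KO libraries fitted alone gave 0 calls (smallest edgeR adjusted p = 0.134), so the 676 depend on fitting the fl/fl libraries too. Without KO untreated replicate 1, the KO libraries alone gave 1839. With KO untreated replicate 1 left out of the fit, 1989 genes changed, or 15.2% of those tested, of which 1089 (8.33%) rose and 900 (6.88%) fell. The balance turned without fl/fl TGF-β1 replicate 4, where 1202 rose and 1299 fell, and under limma, where 977 rose and 1032 fell with a pseudocount of 0.1 and 969 and 1093 with 1. 675 genes were called in both fits with the same sign, 1314 with 15 libraries alone and 1 with 16 alone. Because the library was left out for its expression, the p-values of the 15-library fit are not those of an untouched design. Below, "rose" and "fell" refer to that fit. A KO change given with 1 value is also from that fit, and the value from all 16 libraries is given for some genes only. Lone values therefore do not show what the full labelled design gives. Counts of list members below stand against these shares of all genes: 8.33% higher and 6.88% lower with 15 libraries, and 2.19% and 2.97% with 16.

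In the edgeR fits, the single library weighed more on the genes that rose than on those that fell. Of the 498 genes that rose at least 2-fold with 15 libraries, 180 (36.1%) were also called with 16, and their log2 change with 16 libraries was a median of 0.631 times that with 15. Of the 395 that fell at least 2-fold, 239 (60.5%) were called with 16, at a median of 0.856 times the change. The biological coefficient of variation of the whole fit was 0.210 with the library and 0.185 without it. The scatter of the log2 changes from the 2 fits shows this as points that fall below the line of equal change for risers and stay close to it for fallers. The library itself lay about as near the treated mean for both, at median positions, defined further on, of 0.947 and 0.974. With 16 libraries 42.5% of the edgeR calls were higher, and 58.4% of those of limma with a pseudocount of 0.1. The contrast between risers and fallers is thus given for the edgeR fits only. It does not show that the falls are better supported than the rises.

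**Figure D1:**
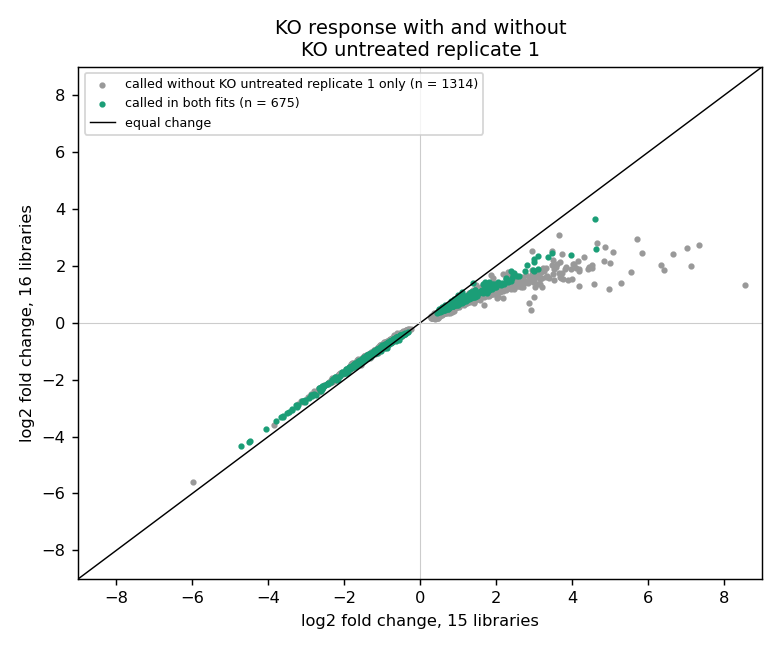
Log2 fold change of TGF-β1 against untreated in KO macrophages with all 16 libraries (vertical axis) against the value with KO untreated replicate 1 left out (horizontal axis), one point per gene called with 15 libraries, with the 675 genes called in both fits in green and the line of equal change. Among genes changed at least 2-fold with 15 libraries, the risers lay at a median of 0.631 times and the fallers at 0.856 times their 15-library value.

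Smad7, the gene targeted for deletion, gave reads in every KO library and rose with TGF-β1. It lies at chr18:75367529-75395935 (mm10, ENSMUSG00000025880). Its level was 1.28, 1.64 and 2.00 CPM in KO untreated replicates 2, 3 and 4, 5.87 CPM in replicate 1, and 19.7, 14.8, 10.8 and 10.3 CPM in TGF-β1 replicates 1 to 4. The treated libraries did not overlap the untreated ones, and replicate 1 lay between the groups. Across all genes, TGF-β1 libraries lay wholly above untreated replicates 2 to 4 for 11.5% of the genes and wholly below for 12.6%; against all 4 untreated libraries the shares were 2.98% and 3.06%. The change was 3.11 ± 0.27 (edgeR adjusted p = 1.51e-07) with 15 libraries and 2.36 ± 0.37 (edgeR adjusted p = 0.00722) with 16, so Smad7 was among the 3 feedback inhibitors called in both fits. In fl/fl macrophages the change was 3.18 ± 0.22. The counts are summed over the gene, so they cannot tell the exons targeted for deletion from the rest.

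Most feedback inhibitors of TGF-β signalling rose. Of 15 tested members of 16 listed, 11 rose and none fell, against 8.33% of all genes rising, with a median change of 0.93 where the median over all genes tested was -0.01. With all 16 libraries 3 were called, namely Smad7, Smurf1 and Tgif1, and the median was 0.64. Pmepa1, a membrane protein that sequesters Smad2 and Smad3, was at 1.70, 2.66 and 2.73 CPM in untreated replicates 2 to 4 and at 292, 343, 332 and 327 CPM with TGF-β1. Untreated replicate 1 was at 319.9 CPM, inside the treated range. The change was 7.12 ± 0.17 (edgeR adjusted p = 1.33e-14) with 15 libraries and 1.98 ± 1.21 (edgeR adjusted p = 0.468) with 16, so that this rise was not called with 16.

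Spsb1, an adaptor that directs the TGF-β type II receptor to ubiquitin ligation, was at 2.41, 1.95 and 2.42 CPM in untreated replicates 2 to 4, 112 CPM in replicate 1 and 109.9, 105, 96.0 and 102 CPM with TGF-β1 (5.55 ± 0.18 with 15 libraries, edgeR adjusted p = 5.99e-13; 1.79 ± 0.98 with 16, edgeR adjusted p = 0.389). Smad6, the inhibitory Smad that acts mainly on BMP receptors, was at 5.96, 4.03 and 3.05 CPM, 54.6 CPM and 73.4, 71.1, 74.0 and 62.7 CPM in the same order, a change of 4.05 ± 0.23 with 15 libraries and 2.05 ± 0.68 with 16. Replicate 1 lay just above the treated range for Spsb1 and just below it for Smad6. The co-repressors Skil and Ski, which bind Smad complexes, changed by 2.35 ± 0.17 and 1.91 ± 0.15, and Ldlrad4, a homologue of Pmepa1, by 1.82 ± 0.15. The ubiquitin ligases Smurf1, Smurf2 and Nedd4l changed by 0.92 ± 0.11, 0.93 ± 0.12 and 0.51 ± 0.10, and the co-repressor Tgif1 by 0.91 ± 0.12. Values for the members that were not called were -0.84 for Tgif2, -0.21 for the decoy receptor Bambi, 0.05 for Wwp2 and 0.17 for the phosphatase Ppm1a. Per length, the authors' mean FPKM with TGF-β1 was 71.8 for Pmepa1, 33.8 for Spsb1, 23.9 for Smad6 and 3.32 for Smad7, so Smad7 had the lowest level of the 4.

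BMP-type target genes rose in all 5 members tested, of 14 listed. The 3 Id genes encode inhibitors that pair with basic helix-loop-helix factors and keep them off DNA. Id3 was at 6.47, 3.50 and 2.73 CPM in untreated replicates 2 to 4 and 184, 116, 97.5 and 77.6 CPM with TGF-β1 replicates 1 to 4, with replicate 1 at 62.5 CPM, below all treated libraries. It changed by 4.85 ± 0.36 (edgeR adjusted p = 2.05e-08), and by 2.66 ± 0.76 (edgeR adjusted p = 0.0581) with 16 libraries. Id1 was low throughout, at 0.308, 0.399 and 0.0525 CPM untreated, 1.24 CPM in replicate 1 and 4.68, 3.14, 1.99 and 1.48 CPM with TGF-β1, and changed by 3.45 ± 0.66 with 15 libraries (edgeR adjusted p = 0.000943) and 2.47 ± 0.63 with 16 (edgeR adjusted p = 0.0344). Id2 changed by 2.39 ± 0.19 and the homeobox gene Dlx2 by 2.98 ± 0.63. With all 16 libraries Id1, Id2 and Dlx2 were called. The fifth member, Smad9, had at most 2.05 CPM and lost its call when untreated replicate 2 was left out as well, which left 4. The position of replicate 1 between the untreated and treated means, defined further on, had a median of 0.678 over these 5 genes.

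**Figure D2:**
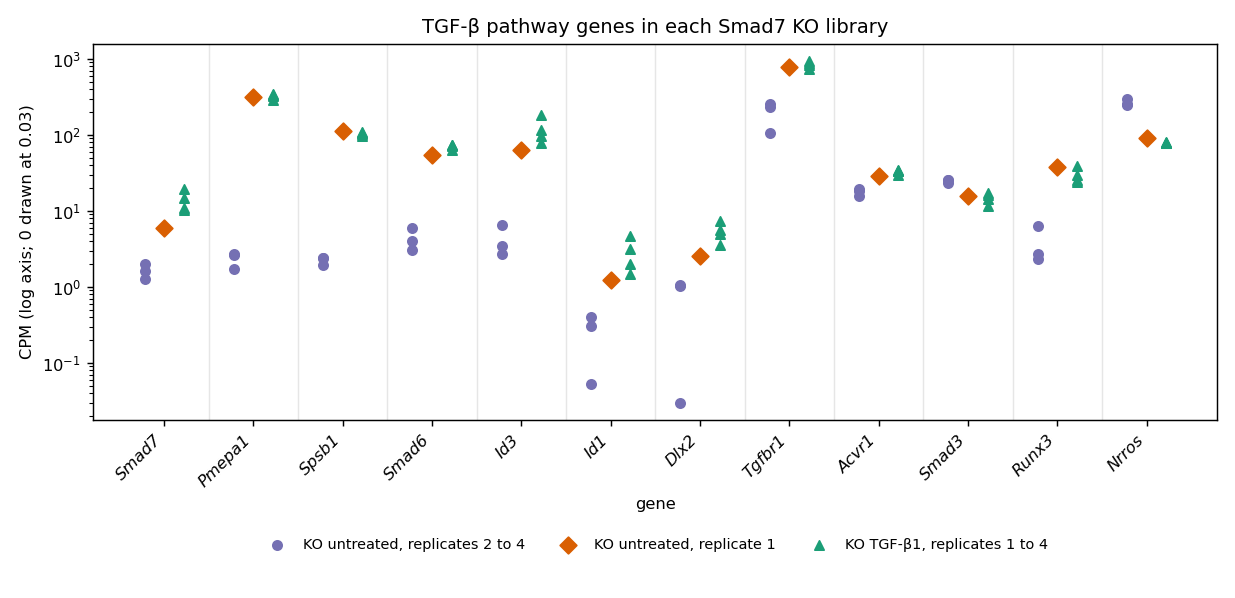
CPM of 12 TGF-β pathway genes (log axis, values of 0 drawn at 0.03) in each KO library, one symbol per library, with KO untreated replicate 1 (diamond) apart from replicates 2 to 4 (circles) and TGF-β1 (triangles). For Pmepa1 and Spsb1 replicate 1 sits with the treated libraries, and for Smad7 and Id1 it sits between the groups.

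Among ligand, receptor and Smad genes the changes were fewer. Of 12 tested receptors 3 rose and 2 fell, with 1 of each called with 16 libraries. The type I receptor Tgfbr1 was at 106, 252 and 233 CPM in untreated replicates 2 to 4, 776 CPM in replicate 1 and 726, 829.6, 885 and 936 CPM with TGF-β1, a change of 2.12 ± 0.27 with 15 libraries (edgeR adjusted p = 1.63e-05) and 1.31 ± 0.43 with 16 (edgeR adjusted p = 0.1). Acvr1, a type I receptor for BMPs and activins, rose by 0.92 ± 0.12 and was also called with 16 libraries at 0.68 ± 0.15. Acvr2a, an activin type II receptor, fell by 0.84 ± 0.20 and was called with 16 libraries too. Tgfbr3, the co-receptor betaglycan, changed by -1.46 ± 0.39, a call that was lost without untreated replicate 2. The type II receptor Tgfbr2 was at -0.20 and not called.

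The Smads that carry the signal changed little at the RNA level. Smad3 was at 25.2, 23.1 and 25.2 CPM in untreated replicates 2 to 4, 15.8 CPM in replicate 1 and 11.8, 17.3, 16.1 and 14.5 CPM with TGF-β1, and changed by -0.69 ± 0.13 with 15 libraries and -0.58 ± 0.15 with 16, called in both. Smad2, Smad4, Smad1 and Smad5 were not called, at -0.17, 0.06, 0.06 and 0.05. All 3 Runx genes, lineage factors that partner Smads, rose. Runx3 was at 6.42, 2.30 and 2.68 CPM, 37.9 CPM and 30.0, 38.9, 24.1 and 25.8 CPM in the same order (3.01 ± 0.32 with 15 libraries; 1.27 ± 0.64 with 16, edgeR adjusted p = 0.337), Runx2 changed by 1.44 ± 0.19 and Runx1 by 0.68 ± 0.14. None of the 3 was called with 16 libraries, and replicate 1 exceeded all but 1 of the treated libraries for Runx3 and Runx2.

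Genes that make latent TGF-β available moved in both directions, with 4 rising and 4 falling of 13 tested, and 3 and 3 with 16 libraries. Itgav, the alpha-v integrin that binds the latent complex, was at 78.3, 107 and 104 CPM in untreated replicates 2 to 4, 404 CPM in replicate 1 and 478, 471, 471 and 487 CPM with TGF-β1, a change of 2.33 ± 0.14 with 15 libraries and 1.46 ± 0.38 with 16 (edgeR adjusted p = 1.16e-09 and 0.039). Its partner Itgb8 moved the other way, from 4.62, 0.753 and 1.10 CPM to 0.0538, 0.0491, 0 and 0.224 CPM, with 0.286 CPM in replicate 1 (-4.51 ± 0.79 with 15 libraries and -4.19 ± 0.87 with 16). For Itgb8 untreated replicate 2 was well above replicates 3 and 4, and the treated libraries held few reads or none. Nrros, which anchors latent TGF-β on macrophages and microglia, fell from 295, 251 and 253 CPM to 77.6, 79.0, 78.2 and 80.4 CPM with 90.4 CPM in replicate 1, a change of -1.73 ± 0.09 with 15 libraries and -1.50 ± 0.23 with 16. The convertase Furin, which cleaves the precursor, rose by 1.41 ± 0.18. The latent binding proteins Ltbp2 and Ltbp3 rose by 2.25 ± 0.39 and 0.80 ± 0.14, while Tgfb1 itself was at -0.04 and not called.

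Of 17 tested members of a list of Smad2/3 target genes, drawn up from other cell types, 8 rose and 4 fell, and 25 were listed. Without untreated replicate 2 as well, 7 rose and 2 fell, and with all 16 libraries 2 rose and 2 fell. Bhlhe40, a transcriptional repressor, rose by 3.25 ± 0.17 from 5.19, 7.79 and 6.46 CPM to 54.0, 57.9, 67.5 and 63.8 CPM, and Xylt1, which starts glycosaminoglycan chains, rose by 2.74 ± 0.15. The 4 that fell include 2 cyclin-dependent kinase inhibitors. Cdkn1a fell by 0.65 ± 0.11, and Cdkn2b, which TGF-β raises in epithelial cells, changed by -2.18 ± 0.55, a call lost without replicate 2. Collagen 1 alpha 1 and the Snail genes were among the members with too few reads to be tested, and Fn1, the matrix protein fibronectin, was at -0.07 and not called.

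The steepest named rises outside these lists were mostly of genes nearly silent in untreated replicates 2 to 4. The rule took the 12 highest and 12 lowest changes among characterised genes that were called with 15 libraries, averaged 1 or more in log2 CPM and did not overlap between untreated replicates 2 to 4 and the treated libraries, so the separation of these 24 is not a finding. Hes1, a transcriptional repressor of the Notch pathway, had 4 reads in all in those 3 libraries, 119 in replicate 1 and 112 to 218 per TGF-β1 library. That was 0.0514, 0.0443 and 0.105 CPM, 5.68 CPM and 11.7, 9.86, 6.19 and 8.77 CPM, a change of 7.02 ± 0.55 with 15 libraries and 2.62 ± 0.91 with 16. F2r, the thrombin receptor PAR-1, had 9 reads in the same 3 libraries and was at 13.6 CPM in replicate 1 and 10.5, 14.7, 12.7 and 12.8 CPM with TGF-β1 (6.41 ± 0.54). Prss46, a serine protease gene, had 3 reads there and lay at 4.11 CPM in replicate 1 and 4.20, 5.25, 4.37 and 3.76 CPM with TGF-β1, too few untreated reads for a fold. For F2r and Prss46 replicate 1 lay within the treated range. Over the alternatives to the 15-library fit other than limma and the 2-fold minimum, the change of F2r ran from 5.86 to 8.64, beyond its standard error. That of Hes1 ran from 6.79 to 7.44. With so few untreated reads, the sizes of these changes are uncertain. Genes this quiet in untreated libraries passed the filter on low counts through their treated libraries.

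Tmeff1, a transmembrane protein with an EGF-like domain, was at 0.719, 0.266 and 0.735 CPM untreated, 21.5 CPM in replicate 1 and 29.1, 30.5, 34.2 and 32.7 CPM with TGF-β1 (5.83 ± 0.45). Tent5c, a poly(A) polymerase that lengthens tails of secreted-protein mRNAs, was at 5.39, 15.5 and 14.4 CPM, 256 CPM and 230.4, 318, 377 and 399 CPM (4.83 ± 0.31). The remaining rises in this set were 4.63 ± 0.42 for the zinc finger gene Zfp618, 4.50 ± 0.48 for the transporter gene Slco5a1 and 4.50 ± 0.39 for the adhesion molecule Mcam. With 16 libraries, 1 of the 12 was called, Zfp618 (2.58 ± 0.61, edgeR adjusted p = 0.0263). For all 12, replicate 1 was the highest untreated library.

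Of the 12 steepest falls, all 12 were called in both fits. As above, this contrast with the rises is given for the edgeR fits only and does not rank the falls as better supported. Ednrb, the endothelin B receptor, was at 274, 132 and 152 CPM in untreated replicates 2 to 4, 16.6 CPM in replicate 1 and 6.02, 14.4, 10.9 and 11.8 CPM with TGF-β1, a change of -4.07 ± 0.24 with 15 libraries (edgeR adjusted p = 1.37e-09) and -3.73 ± 0.56 with 16 (edgeR adjusted p = 0.00808). Rnd3, an atypical small GTPase that acts on the actin cytoskeleton, was at 41.8, 33.5 and 34.4 CPM, 5.68 CPM and 2.64, 1.91, 4.20 and 3.89 CPM in the same order (-3.50 ± 0.24 and -3.19 ± 0.46 in the 2 fits). Slc40a1, the iron exporter ferroportin, was at 758, 1297 and 1249 CPM, 144 CPM and 100.1, 98.5, 136 and 129 CPM (-3.23 ± 0.20 and -2.90 ± 0.46). In these 3 genes replicate 1 lay just above the treated libraries and far below the other untreated ones. Spic, the transcription factor of iron-recycling red pulp macrophages, was at 18.9, 13.5 and 18.3 CPM, 1.48 CPM and 1.67, 1.86, 1.82 and 2.28 CPM (-3.11 ± 0.28 and -2.76 ± 0.53). Gas7, which binds actin, was at 542, 557 and 649 CPM, 80.0 CPM and 53.1, 85.0, 65.7 and 72.6 CPM (-3.05 ± 0.16 and -2.73 ± 0.43).

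The other 7 were the orphan receptor gene Gprc5c (-3.37 ± 0.24), Cdc42ep2, an effector of the small GTPase Cdc42 (-3.26 ± 0.36), the protocadherin gene Pcdha11 (-3.25 ± 0.33), Fam43a (-3.09 ± 0.29), the glycosyltransferase gene B3gnt5, the cytohesin-binding gene Cytip and the receptor gene Slamf8 (-2.89 ± 0.38). B3gnt5 and Cytip rested in size on 1 library. Cytip was at 313, 50.6 and 49.8 CPM in untreated replicates 2 to 4 against 13.6, 22.2, 12.0 and 17.2 CPM with TGF-β1, and changed by -3.04 ± 0.54, or by -1.61 ± 0.25 without replicate 2. B3gnt5 was at 19.8, 2.08 and 3.47 CPM against 0.484, 0.834, 0.387 and 0.940 CPM, and changed by -3.61 ± 0.73, or by -2.02 ± 0.64 without replicate 2. Both were called either way.

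**Figure D3:**
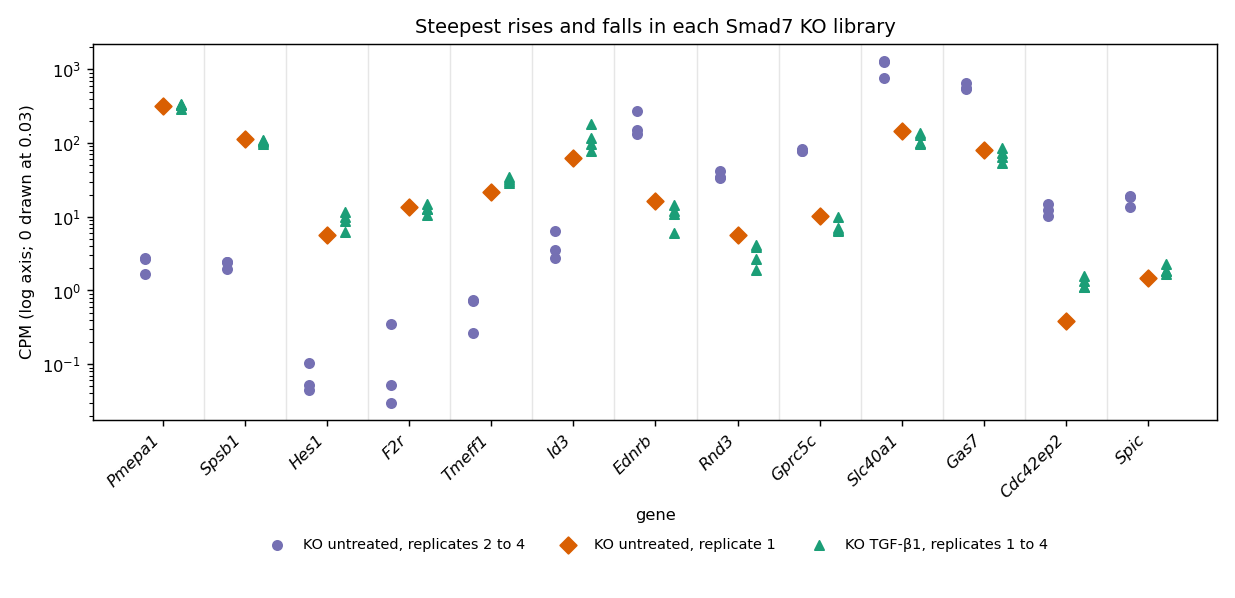
CPM of 6 of the steepest rising and 7 of the steepest falling genes (log axis, values of 0 drawn at 0.03) in each KO library, one symbol per library, with KO untreated replicate 1 as a diamond. Replicate 1 is the highest untreated library for the rising genes, and for Ednrb and Slc40a1 it lies just above the treated libraries.

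Promoter windows are shown for members of these sets because Smad3 and Smad4 bind the letters CAGAC, and Smad1 and Smad5 complexes bind GC-rich sites such as GGCGCC. The windows run from 250 bases before to 50 after the RefSeq start (GRCm38.p6), and 4 motifs were searched on both strands: CAGAC, the palindrome GTCTAGAC, the palindrome GGCGCC, and the AP-1 site TGACTCA with its reverse complement TGAGTCA. No match of 1 motif overlapped a match of another in the windows shown. Of the 24 genes with the steepest changes, Pcdha11 was left out and 16 of the other 23 had a window. CAGAC was in 3 of the 8 windows of rising genes and 4 of the 8 of falling genes, and in 49.6% of all 32851 windows. GGCGCC was in 3 of 8 and 0 of 8, and in 11.9% of all windows. The AP-1 site was in 1 of 8 and 1 of 8, and in 5.2% of all, and GTCTAGAC was in none of the 16 and in 0.213% of all. In the lines below each sequence is the 250 bases before the start, 5′ to 3′ on the gene's strand, with the matches to CAGAC (read as GTCTG on the opposite strand) or TGAGTCA in capitals. Id3, at chr4:136143572-136143821 on the plus strand, carries 2 matches to CAGAC and rose. F2r, at chr13:95618467-95618716 on the minus strand, carries 1 match to CAGAC and the AP-1 site and rose. Ednrb, at chr14:103843702-103843951, and Rnd3, at chr2:51149112-51149361, both on the minus strand, carry 1 match each in the bases shown and fell. Each has 1 more match after the start, so over the whole window Id3, Ednrb and Rnd3 all have 2.
Id3: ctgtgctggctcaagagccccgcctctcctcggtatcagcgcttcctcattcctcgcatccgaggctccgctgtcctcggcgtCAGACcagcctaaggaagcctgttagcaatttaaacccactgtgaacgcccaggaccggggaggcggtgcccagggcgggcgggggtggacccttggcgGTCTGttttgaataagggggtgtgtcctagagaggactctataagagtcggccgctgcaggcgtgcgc
F2r: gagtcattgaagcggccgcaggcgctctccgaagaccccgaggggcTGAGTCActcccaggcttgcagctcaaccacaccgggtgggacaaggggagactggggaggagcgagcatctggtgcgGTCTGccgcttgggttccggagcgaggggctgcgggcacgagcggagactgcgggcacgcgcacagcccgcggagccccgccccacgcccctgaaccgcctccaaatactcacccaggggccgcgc
Ednrb: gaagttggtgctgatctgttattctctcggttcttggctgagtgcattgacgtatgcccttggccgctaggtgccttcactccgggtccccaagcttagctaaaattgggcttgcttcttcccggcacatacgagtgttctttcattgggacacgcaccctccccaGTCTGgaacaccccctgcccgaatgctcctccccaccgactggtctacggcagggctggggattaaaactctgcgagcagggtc
Rnd3: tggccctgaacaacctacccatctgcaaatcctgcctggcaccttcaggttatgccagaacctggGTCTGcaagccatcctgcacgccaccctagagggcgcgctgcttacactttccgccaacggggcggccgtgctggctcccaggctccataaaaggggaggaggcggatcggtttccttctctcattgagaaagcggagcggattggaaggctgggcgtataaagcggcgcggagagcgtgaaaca

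Outside the genes with the steepest changes, the windows of Id2, Smad6 and Cx3cr1 were searched as well, as list members shown in the text. They were picked by hand and not by a rule. All of these rose. The palindrome GTCTAGAC, found in 0.213% of all windows, was at the start of Smad6 and was absent from the windows of Id2 and Cx3cr1. CAGAC had 2 matches in Cx3cr1 and 0 in Smad6 and Id2, and GGCGCC had 1 match in Id2. With genes picked by hand, the match in Smad6 cannot be weighed against the share of all windows. The 30 bases at chr9:64022056-64022085 on the minus strand, which span the annotated start, are shown with the palindrome in capitals.
Smad6: agcgccgcggagccgccaaagtGTCTAGAC
A match is a description of letters and does not show binding, and a window without one says nothing about the factor.

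Notch pathway genes moved in both directions. Of 10 tested, 5 rose and 2 fell, against 8.33% and 6.88% of all genes. With 16 libraries 2 rose and 2 fell, against 2.19% and 2.97% of all genes. The receptor gene Notch4 was at 6.68, 4.65 and 5.94 CPM in untreated replicates 2 to 4, 34.5 CPM in replicate 1 and 51.9, 43.1, 44.4 and 52.9 CPM with TGF-β1 (3.09 ± 0.22 with 15 libraries and 1.89 ± 0.50 with 16). Notch1 was at 111, 127 and 122 CPM, 380.3 CPM and 371, 398, 326 and 367 CPM (1.63 ± 0.11 and 0.98 ± 0.29), while Notch2 fell by 0.70 ± 0.14, and Rbpj, the DNA-binding partner of activated Notch, fell by 1.13 ± 0.18. The Notch receptors thus moved in opposite directions within the same libraries.

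Genes that mark microglia and other resident macrophages included 8 that rose and none that fell, of 18 tested, with a median change of 0.63 against -0.01 over all genes. With 16 libraries 1 was called. Olfml3, a secreted olfactomedin-like protein, was at 3.08, 5.93 and 5.46 CPM in untreated replicates 2 to 4, 59.7 CPM in replicate 1 and 77.1, 66.4, 83.8 and 79.7 CPM with TGF-β1 (4.01 ± 0.21; 2.05 ± 0.67 with 16 libraries). Cx3cr1, the fractalkine receptor, was at 20.4, 59.4 and 63.9 CPM, 369 CPM and 423, 480.5, 536 and 643 CPM (3.46 ± 0.32; 2.02 ± 0.61 with 16). Both genes had their lowest level in untreated replicate 2. Tmem119 and the adhesion receptor Adgrg1 rose by 2.95 ± 0.49 and 2.87 ± 0.24, and the purinergic receptor P2ry12 by 1.62 ± 0.27. Trem2, Mertk, Csf1r and C1qa were not called, at 0.29, 0.35, 0.26 and 0.16.

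Of 12 tested growth and angiogenic factor genes, 4 rose and none fell, or 1 fell without fl/fl TGF-β1 replicate 4. Pdgfa, a platelet-derived growth factor chain, was at 9.96, 13.3 and 11.5 CPM in untreated replicates 2 to 4, 134 CPM in replicate 1 and 131, 159.9, 129 and 147 CPM with TGF-β1, a change of 3.64 ± 0.16 with 15 libraries and 1.75 ± 0.65 with 16 (edgeR adjusted p = 0.148). Pdgfb rose by 1.81 ± 0.19 and was called in both fits, and Hgf, hepatocyte growth factor, rose by 1.84 ± 0.26. Fgf2 had no read in untreated replicates 2 to 4, 12 reads in replicate 1 and 81 reads over the 4 treated libraries. Of 20 integrin and adhesion genes 5 rose and 4 fell; the count of falls was 1 without untreated replicate 4, 2 without TGF-β1 replicate 1 or replicate 2, and 2 with the replicate block. Itgb5, which pairs with Itgav, rose by 2.39 ± 0.16, and the fibronectin receptor subunit Itga5 by 2.00 ± 0.10, from 157, 156 and 159.7 CPM to 611, 606, 599 and 656 CPM with 521 CPM in replicate 1. Mmp2, a gelatinase, rose by 3.71 ± 0.25 and the collagenase Mmp13 fell by 1.77 ± 0.21. The protease Plau and the crosslinking enzyme Tgm2 rose by 2.52 ± 0.39 and 1.99 ± 0.27, and neither these nor Mmp2 were called with 16 libraries.

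Interferon-stimulated genes fell as a group. Of 29 tested, 19 fell and none rose, against 6.88% of all genes falling, and the median change was -0.86. With all 16 libraries 5 were called, with a median of -0.66. Rsad2, the antiviral enzyme viperin, was at 324, 301 and 351 CPM in untreated replicates 2 to 4, 30.6 CPM in replicate 1 and 24.6, 45.6, 66.1 and 67.9 CPM with TGF-β1, a change of -2.65 ± 0.30 with 15 libraries (edgeR adjusted p = 3.92e-06) and -2.30 ± 0.56 with 16 (edgeR adjusted p = 0.0323). Mx1, an antiviral dynamin-like GTPase, was at 118, 146 and 166 CPM, 15.6 CPM and 13.7, 19.6, 28.0 and 28.8 CPM (-2.64 ± 0.29 and -2.30 ± 0.53). TGF-β1 replicate 1 had the lowest treated value of both genes and replicate 4 the highest, and untreated replicate 1 lay toward the low end of the treated range. Cmpk2, Mx2 and Ifit1 fell by 2.55 ± 0.22, 2.34 ± 0.29 and 2.14 ± 0.33. The signalling gene Irf9 was not called, at -0.25, and Stat2 fell by 0.86 ± 0.19.

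All 14 tested guanylate-binding and immunity-related GTPase genes, which mark and disrupt vacuoles of intracellular microbes, fell, 9 of them also with 16 libraries, with a median of -1.72. Iigp1 was at 24.0, 33.9 and 29.9 CPM in untreated replicates 2 to 4, 3.82 CPM in replicate 1 and 4.09, 5.50, 5.81 and 8.68 CPM with TGF-β1 (-2.25 ± 0.29 and -1.92 ± 0.49 in the 2 fits). Gbp7 fell by 2.55 ± 0.22 and Irgm2 fell by 1.51 ± 0.16. These families hold near-identical copies, so reads may be split between members, and for 2 of the 14 the deposited symbol differed from that of the annotation. The regulators Irf1, Irf7 and Socs1 fell by 1.40 ± 0.14, 1.01 ± 0.17 and 2.25 ± 0.49, while Irf8, a factor of the macrophage lineage, rose by 0.57 ± 0.13 and Socs2 by 3.37 ± 0.67.

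Inflammatory regulators fell more often than they rose. Of 20 NF-κB subunit and feedback genes, 13 fell and none rose, 6 of them called with 16 libraries. Tnip3, an inhibitor of NF-κB signalling, was at 110.4, 76.1 and 92.4 CPM in untreated replicates 2 to 4, 28.0 CPM in replicate 1 and 17.7, 30.8, 26.2 and 29.0 CPM with TGF-β1 (-1.81 ± 0.21 and -1.57 ± 0.32). The members that fell include inhibitors as well as activators: the inhibitory proteins Nfkbie and Nfkbia changed by -1.41 ± 0.16 and -0.37 ± 0.12, the deubiquitinase Tnfaip3 by -0.72 ± 0.18, and the subunits Nfkb2 and Relb by -0.73 ± 0.12 and -0.67 ± 0.11. The subunits Rela, Nfkb1 and Rel were not called, at 0.01, 0.07 and 0.23.

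Of 13 cytokine genes 5 fell and 1 rose, with 2 falling with 16 libraries. Il10, an anti-inflammatory cytokine, was at 1.75, 1.46 and 2.05 CPM in untreated replicates 2 to 4, 0 CPM in replicate 1 and 0.161, 0.0981, 0.276 and 0.224 CPM with TGF-β1 (-3.14 ± 0.51; -2.75 ± 0.79 with 16 libraries, edgeR adjusted p = 0.0512). Tnfsf10, the death ligand TRAIL, was at 16.8, 15.2 and 17.3 CPM, 1.34 CPM and 1.67, 3.04, 2.60 and 3.36 CPM (-2.59 ± 0.35 and -2.24 ± 0.58). Il15 fell by 1.79 ± 0.19, Tnf fell by 0.86 ± 0.25, and oncostatin M (Osm) rose by 1.82 ± 0.31. Il1b changed by -1.58 ± 0.39, but by -0.90 ± 0.35 and no longer called without untreated replicate 2. Of 19 chemokine ligands 8 fell and 2 rose. Cxcl10, an interferon-induced ligand, fell from 95.2, 148 and 171 CPM to 14.2, 17.2, 28.3 and 26.6 CPM with 9.98 CPM in replicate 1 (-2.66 ± 0.30 and -2.30 ± 0.59). Ccl4, Ccl3 and Ccl5 fell by 2.30 ± 0.26, 1.72 ± 0.19 and 2.25 ± 0.38, while Cxcl14 and the scavenger chemokine Cxcl16 rose by 2.68 ± 0.27 and 1.31 ± 0.13. Cxcr4, the receptor of CXCL12, rose from 46.4, 134 and 105 CPM to 474, 355, 406 and 394 CPM, with 439 CPM in replicate 1 (2.12 ± 0.24; 1.17 ± 0.45 with 16 libraries). The formyl peptide receptor Fpr1 fell by 2.05 ± 0.38.

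Innate sensors fell in 15 and rose in 3 of 26 tested, with 9 and 0 called with 16 libraries. Tlr1, a subunit of the lipopeptide receptor, was at 64.4, 63.9 and 65.4 CPM in untreated replicates 2 to 4, 16.7 CPM in replicate 1 and 18.8, 16.7, 20.3 and 17.5 CPM with TGF-β1 (-1.79 ± 0.17 and -1.52 ± 0.31). Nod1, a sensor of peptidoglycan, and Clec4n, the lectin Dectin-2, fell by 2.01 ± 0.24 and 1.65 ± 0.13. The flagellin receptor Tlr5 changed by -2.84 ± 0.59, or -1.80 ± 0.56 without untreated replicate 2, which held 8.58, 1.99 and 2.00 CPM as the first of the 3 untreated libraries. Naip5, a flagellin sensor of the inflammasome, rose by 0.83 ± 0.15. Of 16 co-stimulatory and checkpoint genes 8 fell and 3 rose. Cd28 fell from 68.2, 171 and 171 CPM to 15.9, 19.1, 25.8 and 25.5 CPM, with 21.8 CPM in replicate 1 (-2.64 ± 0.30 and -2.32 ± 0.49), while Cd274, the ligand PD-L1, fell by 1.40 ± 0.25 and Cd80 fell by 1.34 ± 0.24. Cd276 and Havcr2, which encode B7-H3 and TIM-3, rose by 2.60 ± 0.16 and 2.12 ± 0.20, not called with 16 libraries. Of the antigen presentation genes, 2 of 10 class II and 3 of 16 class I genes fell and none rose, with 1 and 1 called with 16 libraries, where 6.88% of all genes fell with 15. The class I count was 5 with DESeq2 or without TGF-β1 replicate 3, and 6 without fl/fl TGF-β1 replicate 4, and the class II count was 1 without untreated replicate 2 or TGF-β1 replicate 4. Ciita, the class II transactivator, fell by 1.63 ± 0.29.

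Lineage transcription factors split, 8 rising and 9 falling of 23 tested, 2 and 7 with 16 libraries. Cebpa, a myeloid factor, was at 191, 243 and 215 CPM in untreated replicates 2 to 4, 747 CPM in replicate 1 and 793, 890.0, 989.6 and 921 CPM with TGF-β1 (2.08 ± 0.17 and 1.36 ± 0.34, called in both fits). Bach2, a repressor best known in lymphocytes, was at 1.28, 2.61 and 0.735 CPM, 21.3 CPM and 11.3, 15.0, 11.1 and 11.6 CPM (2.99 ± 0.29; 0.91 ± 0.69 with 16 libraries). Replicate 1 exceeded every treated library for Bach2. Maf fell from 455, 563 and 549 CPM to 179, 166, 195 and 175 CPM, with 179 CPM in replicate 1 (-1.52 ± 0.10 and -1.29 ± 0.23), and Klf2 fell by 2.60 ± 0.21. Of the AP-1 and immediate-early genes, Junb and Atf3 rose by 0.90 ± 0.15 and 0.80 ± 0.10 and 6 of 23 fell; 6 rose and 6 fell without untreated replicate 2. The basic helix-loop-helix repressor Bhlhe41 and the clock repressor Nr1d1 rose by 1.76 ± 0.20 and 1.31 ± 0.24, among 5 of 16 clock genes that rose.

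Iron genes fell beside Slc40a1 and Spic. Of 15 tested, 7 fell and 2 rose, 4 and 0 with 16 libraries; the rises numbered 1 without untreated replicate 2, TGF-β1 replicate 1 or TGF-β1 replicate 3. Cd163, the haemoglobin-haptoglobin receptor, was at 21.7, 21.5 and 23.2 CPM in untreated replicates 2 to 4, 5.11 CPM in replicate 1 and 4.79, 6.18, 3.10 and 4.34 CPM with TGF-β1 (-2.23 ± 0.22 and -1.95 ± 0.36). The transferrin receptor Tfrc fell by 1.53 ± 0.27 and Ncoa4, which carries ferritin to the lysosome, fell by 1.22 ± 0.16. The exporter and the importer of iron thus fell in the same libraries. Ahr, the aryl hydrocarbon receptor, fell from 31.6, 19.7 and 19.9 CPM to 2.47, 4.47, 2.87 and 2.95 CPM, with 4.77 CPM in replicate 1 (-2.86 ± 0.23 and -2.57 ± 0.39). Of 16 Nrf2 target genes 7 fell, or 11 without fl/fl TGF-β1 replicate 4, and 1 rose, the glutathione synthesis gene Gclm (0.86 ± 0.10). Srxn1 changed by -1.08 ± 0.25 but by -0.40 ± 0.12 without untreated replicate 2.

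Among 27 G-protein-coupled receptor and RGS genes, 5 rose and 7 fell. The serotonin receptor gene Htr2b was at 1.39, 2.52 and 2.21 CPM in untreated replicates 2 to 4, 17.8 CPM in replicate 1 and 30.1, 22.7, 36.1 and 36.7 CPM with TGF-β1 (3.96 ± 0.25 and 2.39 ± 0.58, called in both fits). The sphingosine-1-phosphate receptor S1pr1 rose by 1.68 ± 0.10 and the medium-chain fatty acid receptor Gpr84 by 1.87 ± 0.20, while the proton sensors Gpr65 and Gpr132 fell by 1.47 ± 0.17 and 1.91 ± 0.25. Ptgs1, cyclooxygenase 1, rose from 47.0, 67.1 and 64.4 CPM to 223, 218, 218 and 207 CPM with 205 CPM in replicate 1 (1.89 ± 0.12 and 1.17 ± 0.32). Among 20 sulfotransferase and glycosyltransferase genes, 6 rose and 7 fell. Chst1 and Chst3, which sulfate keratan and chondroitin chains, rose by 4.16 ± 0.43 and 2.32 ± 0.19, and Chst15 and Chst7 fell by 1.87 ± 0.30 and 1.85 ± 0.31, so sulfotransferases stood on both sides. The semaphorins Sema6d and Sema4b fell by 2.65 ± 0.30 and 2.20 ± 0.17, and Sema4c rose by 1.30 ± 0.21.

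Few replication and lipid synthesis genes were called, where 15.2% of all genes were. Of 26 replication and mitosis genes 1 rose, the helicase subunit Mcm6 (1.00 ± 0.12), and none fell. Of 26 cholesterol and fatty acid synthesis genes 1 rose and 1 fell, with a median of -0.17. The falls numbered 4 without fl/fl TGF-β1 replicate 4, 2 without untreated replicate 2 or with the replicate block, and 0 without untreated replicate 4. In fl/fl macrophages 13 of them fell, with a median of -0.40; none of these was called for the difference between genotypes. Of 21 glycolysis genes 5 rose and 1 fell, with a median of 0.01, and 0 were called with 16 libraries. Hexokinase 2 (Hk2) had the largest change of that list, 2.50 ± 0.11, with 46.7, 46.5 and 45.5 CPM in untreated replicates 2 to 4, 229 CPM in replicate 1 and 226, 257, 264 and 281 CPM with TGF-β1. Leaving out untreated replicate 2 as well left the counts of 13 of 47 lists as they were, shifted those of 30 by 1 member and of 4 by more.

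**Figure D4:**
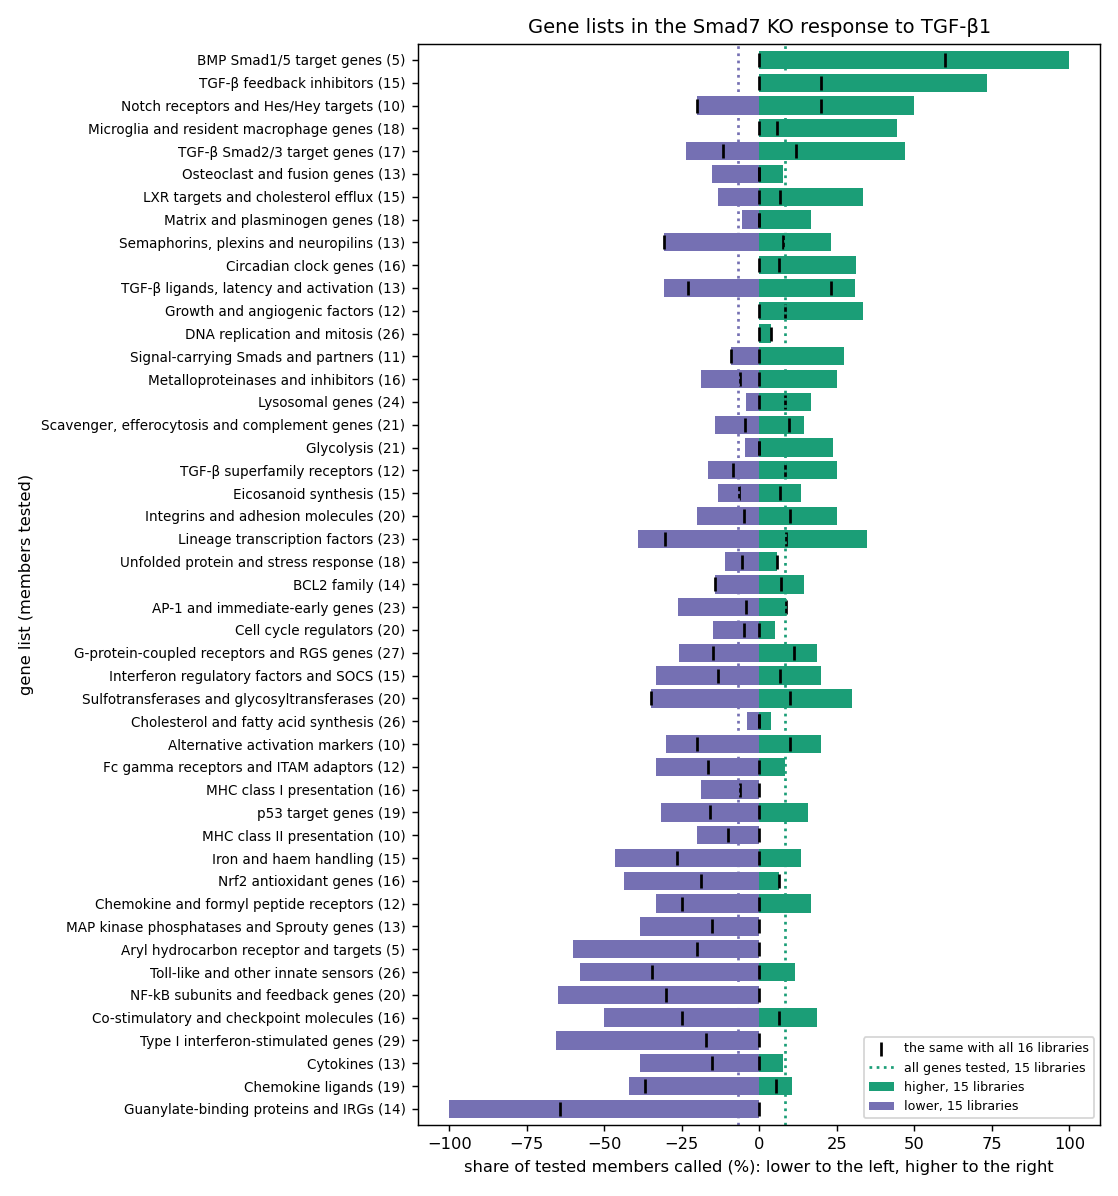
Share of tested members called higher (right) and lower (left) in KO macrophages for each gene list, with 15 libraries and with 16, beside the share over all genes tested (8.33% higher and 6.88% lower with 15 libraries). All 14 guanylate-binding and immunity-related GTPase genes lie on the lower side with 15 libraries, and 11 of 15 feedback inhibitors on the higher side.

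The place of KO untreated replicate 1 was measured gene by gene, on a scale where 0 is the mean log2 CPM of KO untreated replicates 2 to 4 and 1 that of the KO TGF-β1 libraries. Over the 893 genes changed at least 2-fold with 15 libraries its median position was 0.955, at 0.947 for the 498 risers and 0.974 for the 395 fallers. It lay within the range of the treated libraries for 310 risers (62.2%) and 229 fallers (58.0%), and within that of the other untreated libraries for 7 (1.41%) and 10 (2.53%). Those genes were chosen with replicates 2 to 4 and the treated KO libraries, so the position was repeated with 456 rising and 390 falling genes chosen from the 8 fl/fl libraries alone. On those, replicate 1 lay at 0.955 and 0.985, untreated replicates 2 to 4 between -0.113 and 0.083, and the 4 treated libraries between 0.903 and 1.15.

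The position differed between gene groups. Its median over called members was 0.997 for feedback inhibitors, 0.678 for BMP-type targets, 1.29 for interferon-stimulated genes and 1.21 for guanylate-binding and related GTPases. A value above 1 places the library beyond the treated mean, so interferon-stimulated genes were lower in it than in the average treated library. Among genes changed by at least 1.5 on the log2 scale, the lowest positions included Mrgpre (0.478), Sema4b (0.496), Lpar1 (0.504) and Smad7 (0.605), and the highest Gapt (1.82), Ifi205 (1.82), Ifi208 (1.56), Cd69 (1.48) and Cdc42ep2 (1.47). Sema4b was at 18.9, 16.3 and 17.5 CPM in untreated replicates 2 to 4, 8.16 CPM in replicate 1 and 3.82, 4.42, 3.76 and 3.00 CPM with TGF-β1, midway between the groups. Ifi208, an interferon-inducible gene, was at 9.30, 9.39 and 11.6 CPM, 1.19 CPM and 1.72, 2.75, 2.43 and 3.98 CPM, with replicate 1 the lowest of all 8. These are single values of 1 library, without an error of their own.

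**Figure D5:**
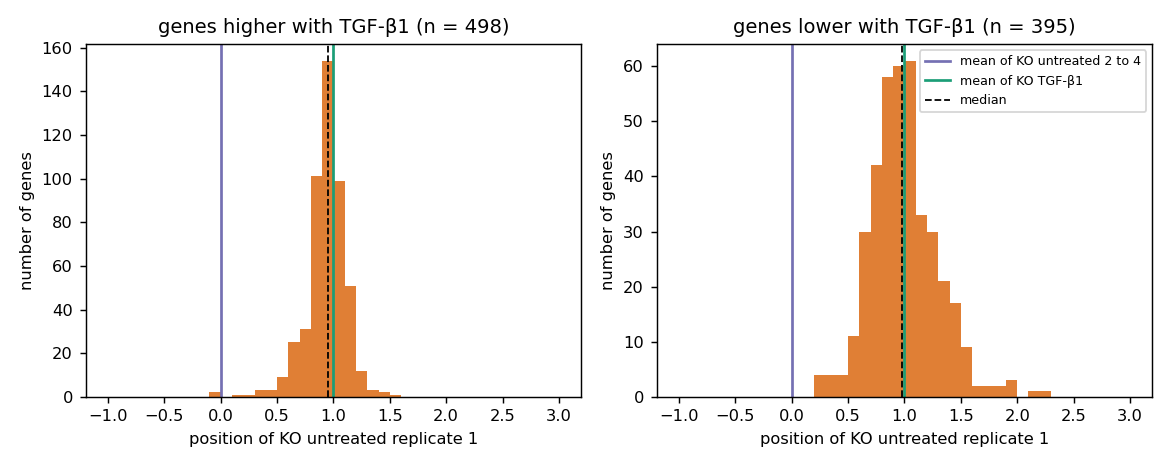
Number of genes (vertical axis) by the position of KO untreated replicate 1 (horizontal axis, 0 at the mean of KO untreated replicates 2 to 4 and 1 at that of KO TGF-β1), for 498 genes higher and 395 lower with TGF-β1 by at least 2-fold; positions beyond the axis ends are drawn in the end bins. Solid lines mark 0 and 1 and the dashed line the median, which lies at 0.947 and 0.974.

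Set beside the KO values, the fl/fl response numbered 2372 genes (18.1%; 1165, 8.91%, higher and 1207, 9.23%, lower) in the 15-library fit and 2025 (15.5%; 7.87% higher and 7.61% lower) in the 16-library fit. Pmepa1 changed by 7.08 ± 0.15 in fl/fl, against 7.12 ± 0.17 in KO, Id3 by 5.50 ± 0.34 against 4.85 ± 0.36, Ednrb by -3.94 ± 0.24 against -4.07 ± 0.24, and Rsad2 by -2.24 ± 0.29 against -2.65 ± 0.30, all with 15 libraries. In a test of the difference between the 2 responses, edgeR called no gene with 15 or 16 libraries, with 256 and 275 genes at an unadjusted p under 0.05 and a smallest adjusted p of 0.982 and 0.993. The same test in DESeq2 called 0 with 15 and 1 with 16 libraries, with 345 and 340 genes at an unadjusted p under 0.05. The gene with the lowest p that responded in KO as well was Vdr, the vitamin D receptor, which rose by 1.56 ± 0.26 in KO and by 2.80 ± 0.25 in fl/fl, a difference of -1.24 ± 0.35 (unadjusted p = 0.00266, edgeR adjusted p = 0.982). A p that misses the threshold does not show that the responses are alike.

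The single gene called by DESeq2 with 16 libraries was Bnc2, a zinc finger gene chosen here after its values were seen. It had 0 reads in KO untreated replicates 2 to 4 and in all 4 fl/fl untreated libraries, 76 in KO untreated replicate 1, 48, 65, 35 and 34 in the KO TGF-β1 libraries and 22, 28, 46 and 72 in the fl/fl TGF-β1 libraries. The call (DESeq2 adjusted p = 1.64e-11, against an edgeR adjusted p of 0.993) was not made when KO untreated replicate 1 was left out. Its reads were thus in every treated library of both genotypes and in 1 library labelled untreated.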

How the data were processed

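The submitters' processing notes name Cufflinks 2.1.1, TopHat2 2.0.9 and HTSeq 0.6.1, and as builds GRCm38.p6 and mm10, without saying which step used which. The authors deposited a table of raw read counts for 35275 genes in 16 libraries and a table of FPKM; 100% of the positive deposited FPKM values equalled the count divided by gene length and library total within 0.1%. Strand and the treatment of reads with several matches are not given in the sources used here, so near-identical copies and antisense partners are uncertain. GENCODE M21 held 34490 of these gene identifiers and gave their symbols.

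Library totals ran from 16865591 to 23741079 counts. No pair of replicates was alike within sampling noise. In R 4.3.3, edgeR 4.0.16 scaled the counts by trimmed mean of M-values (TMM), filterByExpr on the 4 groups kept 13080 genes, and 1 quasi-likelihood model with robust estimation and a mean per group was fitted to all 16 libraries, and again to 15. Standard errors come from the F statistic. DESeq2 1.42.0 and limma 3.58.1 (on log2 FPKM with a pseudocount of 0.1 or 1) were alternatives, as were DESeq2's size factors, no filter, a replicate block, KO libraries alone, a 2-fold minimum (glmTreat) and each library left out. The steps were tested on simulated data.

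The named genes are Smad7, the 12 highest and 12 lowest changes described in the report, up to 4 members per direction of each list, the 8 lowest and 8 highest positions of KO untreated replicate 1, and the 5 genes with the lowest p for the difference between genotypes. Some of these genes are not reported here. Other list members named to complete a group were chosen after their values were seen. The members, lists and rules were chosen with earlier results of these data known.

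Same-numbered KO libraries deviated together with correlations of 0.075, 0.082, 0.187 and 0.239, and of 0.226, 0.113 and 0.153 when only replicates 2 to 4 were used. For fl/fl they were 0.162, 0.173, 0.123 and 0.181. Every same-numbered value exceeds 0.1 with KO replicates 2 to 4 and with fl/fl, and not with all 8 KO libraries. Libraries of different numbers ran from -0.237 to 0.184 in KO and from -0.216 to 0.200 in fl/fl. With KO replicates 2 to 4 alone they ran from -0.175 to 0.084. In fl/fl and in all 8 KO libraries, unlike numbers thus overlapped like ones. With KO replicates 2 to 4 alone they did not overlap. A value over 0.1 therefore cannot by itself show whether the numbers pair the samples, and the labels do not say. A fit with the replicate block is given as an alternative.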

Additional observations from a re-analysis of the deposited data

Results flagged for a closer look

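In groups of 4 libraries a value is listed here when its gap to the nearest of the others, as a share of the group's range, exceeded Dixon's 95% critical value, which chance gives for about 1 group in 20. Of 251 named genes, 79 had such a library among the 4 KO untreated ones, which was replicate 1 for 71 genes and replicate 2 for 8. Replicate 1 had been singled out by its expression before, and the genes were chosen mainly from the fit without it. Its count is thus no separate support, and genes that share the same libraries are not independent. Among the 4 KO TGF-β1 libraries 16 genes did, with replicate 1 apart for 7, replicate 2 for 7 and replicate 4 for 2.

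KO untreated replicate 1 stood apart as the highest of its group for Smad7 at 5.87 CPM and for all 12 of the steepest rises. Among these were Pmepa1 at 320 CPM, Hes1 at 5.68 CPM, F2r at 13.6 CPM, Prss46 at 4.11 CPM, Tmeff1 at 21.5 CPM, Spsb1 at 112 CPM, Id3 at 62.5 CPM, Tent5c at 256 CPM, Zfp618 at 2.01 CPM, Slco5a1 at 3.44 CPM and Mcam at 7.83 CPM. It stood apart as the lowest for Gprc5c at 10.3 CPM.

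KO untreated replicate 2 stood apart as the highest for B3gnt5 at 19.8 CPM and Cytip at 313 CPM, for mitochondrial counts at 2.71% and for ribosomal protein counts at 4.62%. KO TGF-β1 replicate 2 was the highest of the treated libraries for Fam43a at 1.62 CPM.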

How the results depend on the processing

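With all 16 libraries, 676 genes were called in KO macrophages (42.5% of them higher). Without KO untreated replicate 1 there were 1989, while leaving out any other KO library gave between 93 (KO untreated replicate 4) and 248 (KO TGF-β1 replicate 1), so the count of the full design depends on each KO library. DESeq2 called 1093 and no filter 446. KO libraries alone and a 2-fold minimum called 0, with 1916 and 260 at an unadjusted p under 0.05. The share higher was 58.4% or 57.4% with limma and 52.4% with the replicate block, which called 662. With 15 libraries the count stayed between 1667 and 2501 under DESeq2, other size factors, no filter, limma, the replicate block (1740), KO libraries alone and each further library left out; the 2-fold minimum called 336. The share higher was 54.8% with 15 libraries, 48.6% and 47.0% with limma, 48.1% without fl/fl TGF-β1 replicate 4, 68.2% with the 2-fold minimum and 50.8% to 56.2% in the others. The block ended the calls of 14 named genes, including Smad9, with adjusted p from 0.0518 to 0.116. Without KO untreated replicate 2 as well, 1789 were called and 28 of 251 named genes lost their call. The difference between genotypes had 0 calls except 1 under DESeq2 with 16 libraries. The position of KO untreated replicate 1 was 0.955, and 0.940 to 0.975 with 1 other KO library left out. No value changed sign past its threshold. The list counts under DESeq2, the block and further libraries left out were added after seeing the data. With 4 libraries per group, small changes are not resolved, and genes with few reads are measured poorly.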
